A study of Mus musculus and Homo sapiens with 41 samples.

Results

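A set of 10 genes that mark the mast cell, basophil and eosinophil branches of blood formation was followed through the RNA-seq libraries of the study. The genes, matched by symbol, were Fcer1a, Ms4a2, Cpa3, Gzmb, Mcpt8, Prss34, Prg2, Epx, Hdc and Gata2. All 10 were among the 53756 genes of the table for granulocyte-monocyte progenitors (GMPs), and 6 of the 10 were among the 13238 genes of the table for 416b cells. GMPs, sorted from bone marrow as lineage-negative, c-Kit+, Sca-1-, Cd34+ and FcγR+ cells, came from lethally irradiated recipients reconstituted with total bone marrow of C57BL/6 wild type (WT) or Zbtb16lu/lu mice. The donors are told from the recipients by the Cd45-2 and Cd45-1 alleles, the labels give no age, and in Zbtb16lu/lu the gene for the transcription factor PLZF is mutated in the germ line, so in every donor-derived cell. The table holds 2 libraries of each genotype. The second system was 416b, a murine Cd34+ myeloid line, transduced with a lentivirus for PLZF-Flag or with the Empty vector and sorted for GFP, with 1 library per condition.

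Mast cells, basophils and eosinophils are granule-bearing cells of allergy and of the defence against parasites. Mast cells and basophils carry the high-affinity IgE receptor on their surface, and its cross-linking by antigen releases histamine and proteases from their granules. Eosinophil granules hold toxic cationic proteins and a peroxidase. In the marrow the precursors of these cells arise close to the granulocyte-monocyte branch, and part of them falls within or beside the GMP gate. GATA2, together with factors of the C/EBP family, directs progenitors into these fates.

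Because Gata2, whose protein binds GATA motifs, is itself among the genes, the RefSeq promoter windows (GRCm38.p6, which is mm10) were searched for GATAA on both strands. A window holds 300 bases, 250 before and 50 after the annotated start. Windows were found for 9 of the 10 genes and not for Prg2. GATAA or its reverse complement TTATC was present for 4 of these 9 genes, Cpa3, Fcer1a, Ms4a2 and Prss34, and in 25.4% of all 32851 windows. The windows of these 4 genes, written along the gene's own strand with the motif in capitals, are shown with the place of the match. Its first base lay at -45 from the start for Cpa3, at -30 for Prss34 and at -92 for Fcer1a, and Ms4a2 had 3 matches, at -224, -37 and -10.
Cpa3, chr3:20242132-20242431, minus strand: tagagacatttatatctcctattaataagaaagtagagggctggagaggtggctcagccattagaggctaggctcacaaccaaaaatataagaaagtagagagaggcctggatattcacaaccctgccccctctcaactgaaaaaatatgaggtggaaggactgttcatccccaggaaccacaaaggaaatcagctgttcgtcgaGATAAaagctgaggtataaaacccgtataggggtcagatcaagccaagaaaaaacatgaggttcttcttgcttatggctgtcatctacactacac
Fcer1a, chr1:173227180-173227479, minus strand: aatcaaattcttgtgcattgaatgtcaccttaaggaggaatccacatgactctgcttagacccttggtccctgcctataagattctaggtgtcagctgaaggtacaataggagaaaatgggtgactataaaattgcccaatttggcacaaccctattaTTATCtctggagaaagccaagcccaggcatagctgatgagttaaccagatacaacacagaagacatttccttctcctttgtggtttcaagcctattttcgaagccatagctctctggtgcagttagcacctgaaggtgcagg
Ms4a2, chr19:11623670-11623969, minus strand: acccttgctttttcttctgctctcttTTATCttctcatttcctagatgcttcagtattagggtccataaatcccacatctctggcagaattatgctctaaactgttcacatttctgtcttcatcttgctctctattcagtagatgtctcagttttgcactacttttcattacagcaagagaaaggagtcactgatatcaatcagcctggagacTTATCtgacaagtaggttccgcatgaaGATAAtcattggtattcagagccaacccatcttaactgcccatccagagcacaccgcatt
Prss34, chr17:25298144-25298443, plus strand: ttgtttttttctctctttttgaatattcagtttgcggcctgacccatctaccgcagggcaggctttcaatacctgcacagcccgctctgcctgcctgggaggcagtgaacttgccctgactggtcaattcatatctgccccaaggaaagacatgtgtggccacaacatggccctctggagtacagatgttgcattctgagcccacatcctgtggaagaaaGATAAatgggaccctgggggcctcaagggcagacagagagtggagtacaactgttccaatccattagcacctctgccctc
A match of letters is a description and not a binding site. Other motifs were as follows. TGTGGT, the core bound by RUNX factors, was in the windows of 4 of the 9 genes on either strand (Cpa3, Fcer1a, Gzmb and Mcpt8) and in 16.8% of all windows. TTNNGNAA, a loose C/EBP motif, was found on either strand for 2 genes, Fcer1a and one of the windows of Gata2, and in 40.7% of all windows. TATAAA on the gene's strand was present for 3 genes, Cpa3, Epx and Fcer1a, and in 8.32% of all windows.

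The deposited value is a normalized read count, the reads of a gene divided by the DESeq2 size factor of the library. Normalized counts summed to between 38562940 and 40130730 per GMP library, and 1 read was worth between 0.964 and 1.028 of a normalized count. Zbtb16 checked the labels. It stood at 705 and 828 normalized counts in the WT libraries and at 269 and 369 in the Zbtb16lu/lu libraries, a log2 fold change of -1.28 (SE 0.20) that did not pass the test (adjusted p = 0.299). It passed without WT library 1 (-1.39, adjusted p = 3.76e-13), as did 23.0% of all tested genes, and without WT library 2 (-1.16, adjusted p = 1.48e-08), as did 13.8%. It also passed without Zbtb16lu/lu library 2 (-1.50, adjusted p = 0.0443) but not without Zbtb16lu/lu library 1 (-1.05, adjusted p = 0.872). The GMP markers Mpo and Elane, which encode neutrophil granule enzymes, reached 477326 to 552003 and 36604 to 48674 normalized counts. In limma on log2(normalized count + 1), 0 of 20531 tested genes passed an adjusted p of 0.08 (0%), while 898 genes lower in Zbtb16lu/lu (4.37%) and 1130 higher (5.50%) had an unadjusted p under 0.05. The median absolute difference between the libraries of a genotype was larger in WT (0.28 on the log2 scale over the tested genes) than in Zbtb16lu/lu (0.15). WT library 2 had the highest values of the megakaryocyte genes Pf4 and Vwf. Pf4 was at 1306 and Vwf at 1580 normalized counts there, against 96.6 to 486 and 180 to 542 in the other GMP libraries. Gp9, a further megakaryocyte gene, was higher in Zbtb16lu/lu library 1 (64.2) than in WT library 2 (55.9). The methods state independent RNA extractions, more of them than the 2 libraries per genotype in the table, and each genotype is a single sample record. Which extractions the libraries stand for is not given, so p-values measure the spread between these libraries.

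All 10 genes were expressed in GMPs and passed the filter on low values. None passed the test between genotypes, with adjusted p-values from 0.468 to 0.890. The log2 fold change was below 0 for 9 of the 10 (and for 50.9% of all tested genes), and the median over the 10 genes was -0.30, against -0.01 over all tested genes. Both depended on single libraries. Without WT library 1 the fold change was below 0 for 6 of the 10 and the median was -0.07, and without Zbtb16lu/lu library 2 these were 8 and -0.09. Without Zbtb16lu/lu library 1 they were 9 and -0.52. In 4 of the 10, Ms4a2, Gzmb, Prss34 and Gata2, both Zbtb16lu/lu libraries lay below both WT libraries. Over all tested genes this share was 22.1%. An unadjusted p under 0.05 in limma was found for 2 of the 10, Ms4a2 and Prss34, both lower in Zbtb16lu/lu. Over all tested genes the share in this direction was 4.37%. In bulk RNA, fewer cells of a type and less RNA per cell cannot be told apart.

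**Figure D1:**
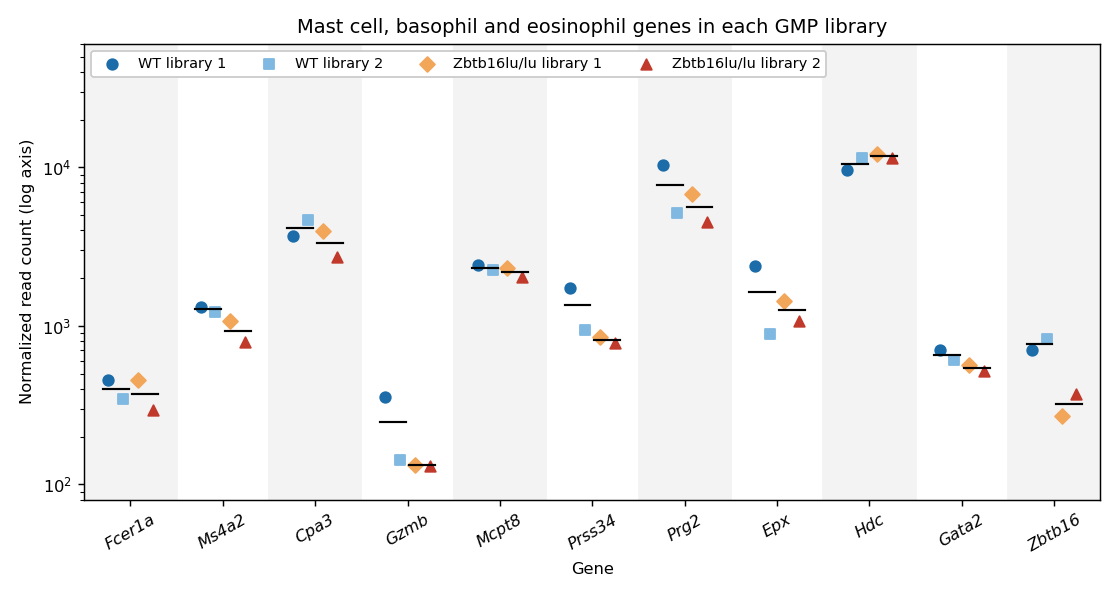
Normalized read count (log axis) of the 10 genes and of Zbtb16 in each GMP library, with symbols for the libraries and a black line at the mean of each genotype (2 libraries). WT library 1 was the highest library for 7 genes and for Fcer1a lay level with Zbtb16lu/lu library 1, while Zbtb16lu/lu library 2 was the lowest for 8 of the 10 genes.

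The 2 members of the IgE receptor differed in their spread. Ms4a2 (chromosome 19, 11615523 to 11623719) encodes the beta chain, which amplifies the signal of the receptor. Its normalized counts were 1316 and 1228 in WT, against 1076 and 785 in Zbtb16lu/lu, means of 1272 ± 62.1 and 931 ± 205 (SD, n = 2 each). The genotypes did not overlap, and the difference of -0.47 (SE 0.17, 95% interval -0.86 to -0.07) had an unadjusted p of 0.0251 and an adjusted p of 0.468 in limma. Fcer1a (chromosome 1, 173221284 to 173227214) encodes the alpha chain that binds IgE. It was at 452 and 346 normalized counts in WT, against 453 and 294 in Zbtb16lu/lu. These ranges overlapped, and the difference was -0.12 (SE 0.25, 95% interval -0.68 to 0.44). It turned to 0.08 without WT library 1 and to 0.19 without Zbtb16lu/lu library 2. Ms4a2 stayed below 0 without any 1 library, between -0.69 and -0.24, and passed the threshold without WT library 1 (-0.42, adjusted p = 0.0162) and without WT library 2 (-0.52, adjusted p = 0.00284). A fit without a WT library takes its spread from the Zbtb16lu/lu libraries alone, and 23.0% of tested genes passed without WT library 1 and 13.8% without WT library 2, so these calls are given as values only.

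The receptor's gamma chain and the kinases and adaptors behind it were read from a list of 16 genes, all tested. Of these, 11 had a log2 fold change above 0 and 5 below, with a median of 0.08, and 0 passed the test in limma, while 4 higher and 1 lower had an unadjusted p under 0.05. Over all tested genes, the reference for this list and the later ones, these shares were 5.50% and 4.37%. Fcer1g, the gamma chain that several Fc receptors share, was at 1625 and 1702 normalized counts in WT, against 2490 and 2239 in Zbtb16lu/lu, a difference of 0.51 (SE 0.12, adjusted p = 0.370). Its libraries did not overlap between the genotypes, with Zbtb16lu/lu the higher. Lat, an adaptor of antigen receptor signalling, went the other way with 131 and 174 normalized counts in WT against 83.3 and 26.7 in Zbtb16lu/lu (-1.65, SE 0.49, adjusted p = 0.422). The Src-family kinase Fyn was at -0.20. Lyn and Syk, the kinases nearest to the receptor, differed by 0.03 and -0.04.

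Of the granule proteases, Cpa3 and Mcpt8 had the highest levels. Cpa3 (chromosome 3, 20215620 to 20242181), the carboxypeptidase of mast cell granules, had 3704 and 4620 normalized counts in WT, against 3943 and 2731 in Zbtb16lu/lu (4162 ± 647 and 3337 ± 857, SD, n = 2 each). The ranges overlapped and the difference was -0.33 (SE 0.19, 95% interval -0.76 to 0.09, adjusted p = 0.568). Without Zbtb16lu/lu library 2 it was -0.07, and without WT library 1 it was -0.49 and passed the threshold (adjusted p = 0.000215). Mcpt8 (chromosome 14, 56082166 to 56085273), a serine protease of basophils, had 2402 and 2237 normalized counts in WT, against 2313 and 2033 in Zbtb16lu/lu. This was the most even of the 10 genes, with a difference of -0.10 (SE 0.13, 95% interval -0.39 to 0.19). The difference was -0.19 without Zbtb16lu/lu library 1 and -0.003 without Zbtb16lu/lu library 2. The interval leaves room for a fall of 0.39 but not of 1 on the log2 scale.

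Prss34 and Gzmb shared another distribution, a single high library. Prss34 (chromosome 17, 25298394 to 25300165), a further basophil serine protease, was at 1743 normalized counts in WT library 1 and at 944 in WT library 2, 846 in Zbtb16lu/lu library 1 and 778 in Zbtb16lu/lu library 2. Gzmb (chromosome 14, 56258838 to 56262260) encodes granzyme B, a protease of cytotoxic lymphocytes that mast cells and basophils can also make. It was at 354 normalized counts in WT library 1 and at 142, 133 and 131 in the other GMP libraries in the same order. Both genes were therefore above all other libraries in WT library 1 only, and WT library 2 was close to Zbtb16lu/lu. The differences were -0.66 for Prss34 (SE 0.25, 95% interval -1.24 to -0.08, unadjusted p = 0.0292, adjusted p = 0.470) and -0.76 for Gzmb (SE 0.39, 95% interval -1.64 to 0.12, adjusted p = 0.549). Without WT library 1 they were -0.22 and -0.10. Without WT library 2 they were -1.10 and -1.42 and passed the threshold (adjusted p = 9.18e-14 and 6.14e-07), again with the spread of the Zbtb16lu/lu libraries alone.

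A list of 12 T and NK cell markers was read beside Gzmb. The lineage depletion included Cd5, and the cells were sorted as c-Kit+. Of the 12 markers, 11 stayed under the filter. The highest values among these 11 were 18.3 normalized counts for Klrd1, in WT library 2, and 13.4 for Klrb1c, in Zbtb16lu/lu library 2. Klrb1c was at 1.99 and 0.964 in WT, against 9.03 and 13.4 in Zbtb16lu/lu. Prf1 reached at most 8.68, Cd3e 2.98 and Gzma 0.994. The remaining marker, Nkg7, passed the filter with 11056 to 11712 normalized counts in all GMP libraries. The summed level of the list was 11737 and 11253 in WT, against 11088 and 11651 in Zbtb16lu/lu. Nearly all of it was Nkg7, at 11712 and 11201 in WT, against 11056 and 11617 in Zbtb16lu/lu. The part of T and NK cells in the level of Gzmb was not tested.

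The eosinophil granule genes differed more between the WT libraries than between the genotypes. Prg2 (chromosome 2, 84980461 to 84983632), the major basic protein, had 10394 normalized counts in WT library 1 and 5134 in WT library 2, a 2.02-fold gap, and 6753 and 4544 in Zbtb16lu/lu. Epx (chromosome 11, 87864000 to 87875536), eosinophil peroxidase, was at 2379 and 891 in WT, a 2.67-fold gap, and at 1428 and 1075 in Zbtb16lu/lu. For Epx the Zbtb16lu/lu libraries lay between the WT libraries, and for Prg2 the ranges overlapped. The differences were -0.40 for Prg2 (SE 0.30, 95% interval -1.08 to 0.29, adjusted p = 0.660) and -0.23 for Epx (SE 0.38, 95% interval -1.09 to 0.63, adjusted p = 0.851). Both turned with the WT library that was used. Without WT library 1, Prg2 was at 0.11 and Epx at 0.48 (adjusted p = 0.00394), and without WT library 2 they were at -0.91 and -0.94 (adjusted p = 3.72e-14 and 7.42e-12). Epx thus passed the threshold in opposite directions.

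Prg3, the close paralogue of Prg2 that lies 4583 bases from it, was looked at as its neighbour. It had 751 normalized counts in WT library 1 and 406, 428 and 437 in the other GMP libraries in the order above, so WT library 1 was again the highest. Reads shared between such paralogues are uncertain, since the methods name the aligner with its default settings and the counter, and the column headers carry the word unique, but none of these spells out how reads that fit several genes were treated. Mpo, which lies 59587 bases from Epx and encodes the related peroxidase of neutrophils, was the reverse, with 477326 and 483375 normalized counts in WT, against 543288 and 552003 in Zbtb16lu/lu (0.19, adjusted p = 0.686). The mean of Mpo in WT, 480350 normalized counts, was beside 1635 for Epx and 286 for Lpo, the lactoperoxidase gene between them.

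Hdc (chromosome 2, 126593667 to 126619299) encodes histidine decarboxylase, which makes histamine. It was the single gene of the 10 with a value above 0. Its normalized counts were 9668 and 11419 in WT, against 12113 and 11405 in Zbtb16lu/lu, with overlapping ranges and a difference of 0.16 (SE 0.12, 95% interval -0.12 to 0.44, adjusted p = 0.660). Without WT library 2 it was 0.28 with an adjusted p of 0.0799, just under the threshold, and without WT library 1 it was 0.04. Slc18a2, the transporter that loads histamine into granules, was at 713 and 593 normalized counts in WT, against 559 and 535 in Zbtb16lu/lu (-0.25, adjusted p = 0.617). It is named here after its values were seen.

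Gata2 (chromosome 6, 88193891 to 88207032) is the transcription factor of the group. Its normalized counts were 701 and 607 in WT, against 565 and 520 in Zbtb16lu/lu, means of 654 ± 66.8 and 543 ± 31.7 (SD, n = 2 each). The genotypes did not overlap, but the gap between the nearest libraries was smaller than that between the WT libraries. The difference was -0.27 (SE 0.16, 95% interval -0.63 to 0.10, adjusted p = 0.592), and without any 1 library it stayed between -0.37 and -0.16.

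**Figure D2:**
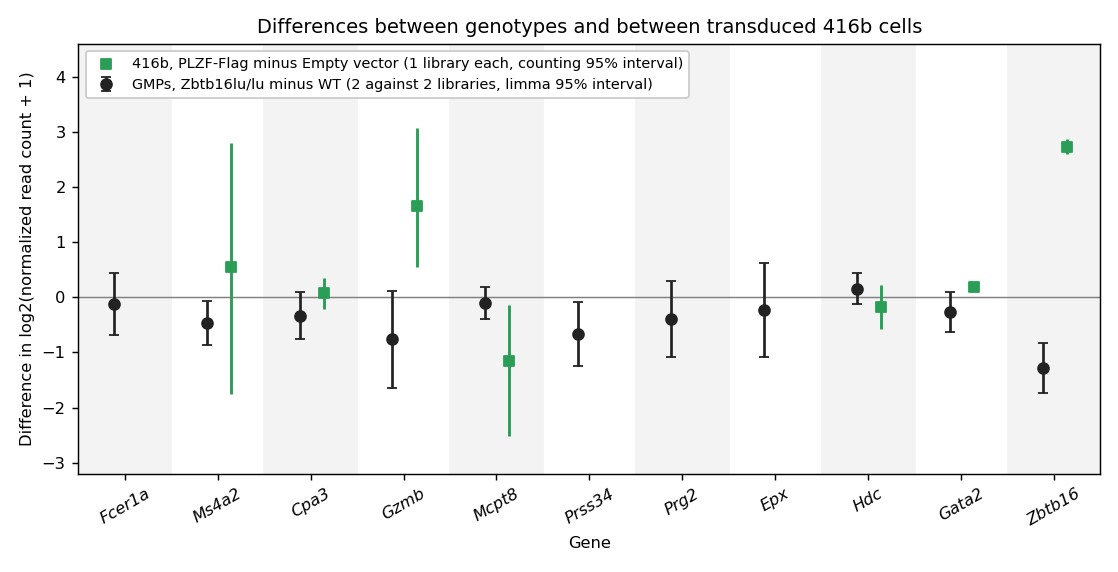
Differences in log2(normalized read count + 1) for the 10 genes and Zbtb16. Black circles show Zbtb16lu/lu minus WT GMPs with limma's 95% interval, and green squares show PLZF-Flag minus Empty vector 416b cells with a 95% interval of counting error only, where the gene is listed. Of the GMP intervals of the 10 genes, those of Ms4a2 (-0.86 to -0.07) and Prss34 (-1.24 to -0.08) lay below 0 before adjustment for the number of genes tested.

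The column names carry dates, and WT library 1 shares its date with Zbtb16lu/lu library 2. What the date marks is not stated. In this pair 9 of the 10 genes were lower in Zbtb16lu/lu, Hdc being the exception at 0.24. In the other pair, WT library 2 with Zbtb16lu/lu library 1, whose dates differ, 5 of the 10 were lower. The signs were opposite between the pairs for 4 genes, Fcer1a (-0.62 and 0.39), Mcpt8 (-0.24 and 0.05), Prg2 (-1.19 and 0.40) and Epx (-1.14 and 0.68). Lower values in both pairs were found for 5 genes. These were Cpa3 (-0.44 and -0.23), Ms4a2 (-0.74 and -0.19), Prss34 (-1.16 and -0.16), Gata2 (-0.43 and -0.10) and Gzmb (-1.43 and -0.09). For each of the 5 the value was nearer to 0 in the pair of different dates. With 1 library of each genotype per pair there is no test within a pair.

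**Figure D3:**
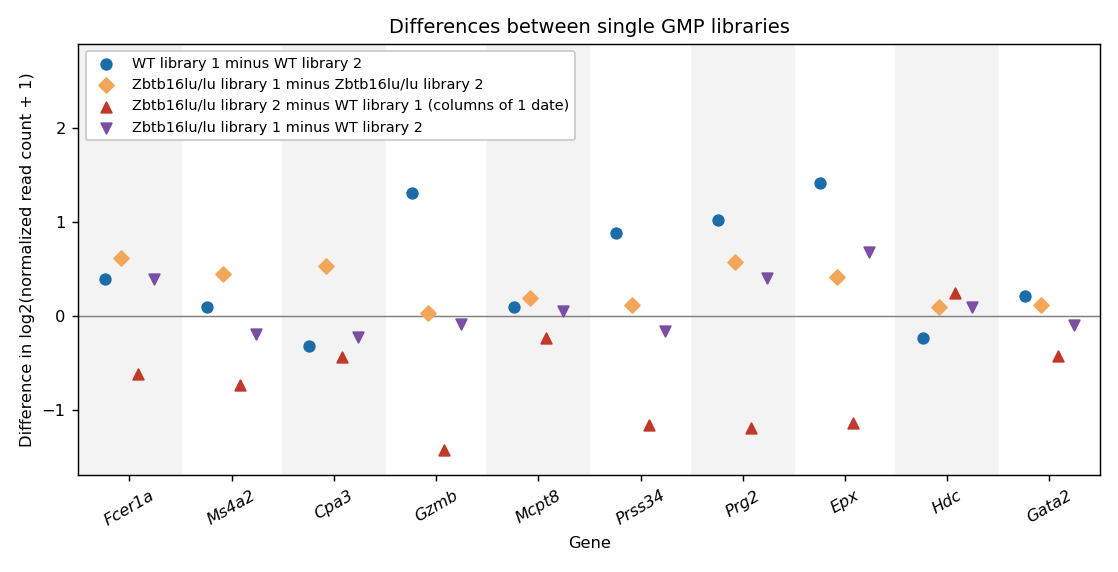
Differences in log2(normalized read count + 1) between single GMP libraries, within WT, within Zbtb16lu/lu, and between genotypes for the pair of a shared date and for the other pair. The largest differences within WT are those of Epx (1.42), Gzmb (1.31) and Prg2 (1.02), and the pair of a shared date lies below the other pair for every gene but Hdc.

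Markers of other cell types also took different values in the genotypes. All 10 neutrophil markers had values above 0 in Zbtb16lu/lu, with a median of 1.62, and for 6 of them both Zbtb16lu/lu libraries lay above both WT libraries (21.7% over all tested genes). Ltf, the gene of lactoferrin in secondary granules, was at 56.7 and 11.6 normalized counts in WT, against 846 and 305 in Zbtb16lu/lu. The summed level of the neutrophil list overlapped, with 14158 and 6478 in WT, against 20968 and 10455 in Zbtb16lu/lu. All 8 monocyte markers were above 0 (median 0.39), and their sum was 86674 and 101325 in WT against 124744 and 117780 in Zbtb16lu/lu. Of 11 tested erythroid and megakaryocyte markers 9 were below 0 (median -0.68), with sums of 14341 and 18028 in WT, against 13280 and 10322 in Zbtb16lu/lu. B cell markers other than Cd79b stayed under the filter. Of these lists 0 markers passed the test in limma, while 6 neutrophil and 5 monocyte markers higher and 1 erythroid marker lower had an unadjusted p under 0.05, and their part in the values of the 10 genes was not tested.

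Of a list of 20 other mast cell genes 12 were tested, 8 with values below 0 and 4 above (median -0.09), and 0 passed in limma (0 at an unadjusted p under 0.05). The proteases of mature connective tissue and mucosal mast cells were at or near 0. Tpsb2 and Tpsab1, the tryptases, had at most 1.99 and 1.03 normalized counts, Mcpt4 had at most 1.03, and Mcpt1 and Mcpt2 were at 0 in all GMP libraries, while Cma1 had 33.8 and 9.64 in WT, against 15.1 and 14.4 in Zbtb16lu/lu. Mcpt8 lies in the same protease cluster, 19853 bases from Mcpt4 and 14608 bases from Ctsg, the cathepsin G gene of myeloid progenitors, which had a mean of 111400 normalized counts in WT. The named genes at the ends of the list were Rab27b (-1.01, SE 0.82) and Gata1 (-0.42, SE 0.29) below and Ndst2 (0.21, SE 0.13) and Hpgds (0.19, SE 0.33) above. Rab27b, which acts in granule release, was highest in WT library 2, as Pf4 and Vwf were, with 320 normalized counts there against 32.9 to 127 in the other GMP libraries.

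Of 20 basophil genes 18 were tested, 10 with values below 0 and 8 above (median -0.10), and 0 passed in limma (3 higher and 1 lower gene had an unadjusted p under 0.05). Il3ra, the alpha chain of the receptor for IL-3, the main growth factor of basophils, was higher in both Zbtb16lu/lu libraries, at 912 and 785 normalized counts against 493 and 487 in WT (0.79, SE 0.16, unadjusted p = 0.000833, adjusted p = 0.299). The cytokine gene Osm stood at 0.64 (SE 0.17). The lower end held Cd69, an activation antigen, at -0.62 (SE 0.26) and Csf1 at -0.44 (SE 0.26). Il3ra was thus above 0 while the basophil proteases Mcpt8 and Prss34 were below 0, and neither side passed the test.

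Of 18 eosinophil genes 12 were tested, 6 with values below 0 and 6 above (median -0.13), and 0 passed in limma (2 higher and 1 lower gene had an unadjusted p under 0.05). Ear6, an eosinophil-associated ribonuclease, had the lowest value, with 184 and 106 normalized counts in WT, against 53.2 and 36.0 in Zbtb16lu/lu (-1.65, SE 0.38, adjusted p = 0.326). Genes of this ribonuclease family are near-identical copies, so how reads were divided among them is uncertain. Il5ra, the receptor chain for IL-5, the eosinophil growth factor, had 75.6 and 61.7 normalized counts in WT, against 63.2 and 29.8 in Zbtb16lu/lu (-0.64, SE 0.43). The upper end held S100a6 (1.01, SE 0.30) and Adgre1 (0.50, SE 0.22), which monocytes and macrophages also express.

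Fate factors were divided evenly, with 11 of 22 above and 11 below 0 and a median of 0.01, and 0 passed in limma (3 higher and 1 lower gene had an unadjusted p under 0.05). Trib1, a pseudokinase that lowers C/EBPα protein, was at 475 and 561 normalized counts in WT, against 788 and 968 in Zbtb16lu/lu (0.76, SE 0.17, adjusted p = 0.326). Cebpb was at 0.75 (SE 0.40), and Ikzf2 was at -0.44 (SE 0.14). Gata1, which acts with and after GATA2, had 214 and 213 normalized counts in WT, against 212 and 119 in Zbtb16lu/lu. It was thus low in a single library. Of 10 tested cytokine receptor genes 5 were above and 5 below 0, with a median of -0.01, and 0 passed in limma (3 higher at an unadjusted p under 0.05). Il3ra (0.79) and Crlf2 (0.75, SE 0.22), a chain of the receptor for TSLP, had the highest values, and Il5ra and Il1rl1, the IL-33 receptor, at -0.24 (SE 0.29), the lowest.

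**Figure D4:**
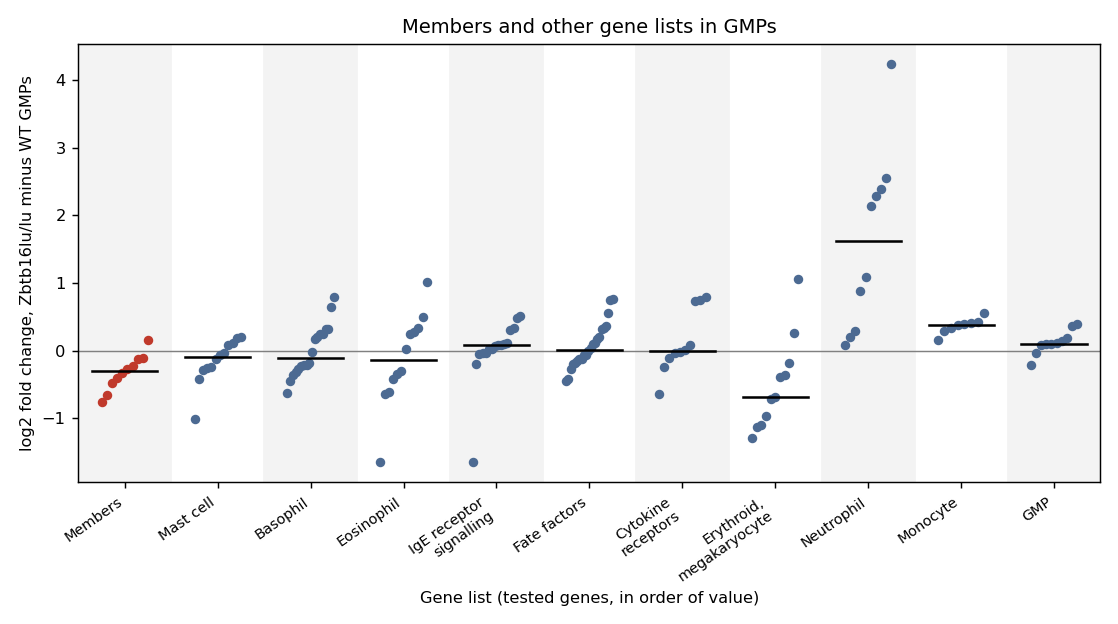
Log2 fold changes between Zbtb16lu/lu and WT GMPs of the 10 genes (red) and of the tested genes of 10 other lists (blue), sorted within each list, with a black line at the median. The medians of the mast cell, basophil and eosinophil lists (-0.09, -0.10 and -0.13) lay nearer to 0 than that of the 10 genes (-0.30), and the neutrophil list had a median of 1.62.

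The same genes were set against PLZF expression in 416b cells. The Empty vector library held 54529689 reads on the listed genes and the PLZF-Flag library 19995819. Zbtb16 was at 382 normalized counts in Empty vector against 2541 in PLZF-Flag, a log2 ratio of 2.73. The table lists only genes above 0 in both libraries. Fcer1a, Prss34, Prg2 and Epx were not listed, so their level in either library is not known beyond that. With 1 library per condition there is no test, and the 95% exact binomial (Clopper-Pearson) intervals cover counting error only. They were computed from the reads, without the pseudocount of 1 that the ratios carry.

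Gata2 was the abundant member in 416b cells, with 12441 normalized counts in Empty vector and 14121 in PLZF-Flag. Its log2 ratio was 0.18 (interval 0.15 to 0.22), small beside a ratio of 1. Cpa3 had 230 and 243 normalized counts (0.08, interval -0.21 to 0.36), and Hdc had 130 and 116 (-0.17, interval -0.58 to 0.23). For both, a difference was not detectable at this depth. Ms4a2 rested on 6 and 3.5 recovered reads, a fraction arising where a value is no whole number of reads, and its ratio of 0.55 had an interval from -1.75 to 2.81.

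Among the 5 members whose mean was 10 normalized counts or more, 2 passed a log2 ratio of 1 in either direction, against 1.41% of the 11836 genes with such a mean (0.498% upward and 0.912% downward). Gzmb was at 6.66 normalized counts in Empty vector against 23.1 in PLZF-Flag, a ratio of 1.66 (interval 0.55 to 3.08) that stood on 11 and 14 reads. Mcpt8 was at 30.9 and 13.2, a ratio of -1.16 (interval -2.51 to -0.14) on 51 and 8 reads. Among the 794 genes with a mean of 10 to 30 normalized counts, where both lie, 15.9% passed this ratio. With a pseudocount of 10 the ratios were 0.99 for Gzmb and -0.82 for Mcpt8, and neither passed.

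The wider lists were read in the same way. Of the mast cell genes with such a mean 1 of 10 passed, of the eosinophil genes 1 of 8 and of the fate factors 1 of 20, and each time it was Gata1, a gene on these 3 lists, at 15.1 normalized counts in Empty vector and 43.0 with PLZF-Flag (1.45, interval 0.66 to 2.36, on 25 and 26 reads). Of the basophil genes 1 of 17 passed, the chemokine gene Ccl3, at 24.2 and 3.30 (-2.55, interval -5.97 to -0.93, on 40 and 2 reads). None of 15 genes of IgE receptor signalling and none of 8 cytokine receptor genes passed. Fcer1g, the gamma chain, was abundant at 7813 and 6965 normalized counts (-0.17), although Fcer1a was not listed. The medians of the 6 lists lay between -0.12 and 0.08.

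The levels in the 2 systems were set side by side as CPM (counts scaled to the sum of the listed genes) per kilobase of exon, with no test, since the tables were normalized separately and the libraries were made with different kits. In WT GMPs Prg2 was the highest of the 10 on this scale (311 and 159), followed by Cpa3 (61.1 and 79.0), Mcpt8 (60.3 and 58.1), Hdc (37.9 and 46.3), Prss34 (35.8 and 20.1), Epx (21.8 and 8.44), Ms4a2 (11.7 and 11.3), Fcer1a (11.3 and 9.0), Gzmb (6.17 and 2.56) and Gata2 (3.25 and 2.91). The ranges of the WT libraries overlapped for the neighbours Prss34 and Epx, Epx and Ms4a2, Ms4a2 and Fcer1a, and Gzmb and Gata2 in this order. Those of Prg2, Cpa3, Mcpt8, Hdc and Fcer1a did not overlap with the next. In normalized counts per kilobase, Prg2 in WT exceeded 98.5% of the tested genes, Cpa3 94.5% and Mcpt8 93.4%, whereas Gata2 exceeded 43.1%. In 416b cells the order was different. Gata2 was at 69.8 in Empty vector and 79.2 in PLZF-Flag, Cpa3 at 4.59 and 4.85, and Mcpt8, Hdc, Gzmb and Ms4a2 were all under 1. In CPM, Gata2 was 22.7-fold higher in Empty vector 416b cells than in WT GMPs, and Cpa3 was 15.2-fold, Mcpt8 63.2-fold and Hdc 68.2-fold higher in WT GMPs. 416b cells thus had abundant Gata2 transcript, but the eosinophil granule genes were not listed. The GMP marker Mpo stood at 12.1 and 3.30 normalized counts in 416b cells and Elane was not listed, while the megakaryocyte gene Pf4 was at 5769 and 5033.

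**Figure D5:**
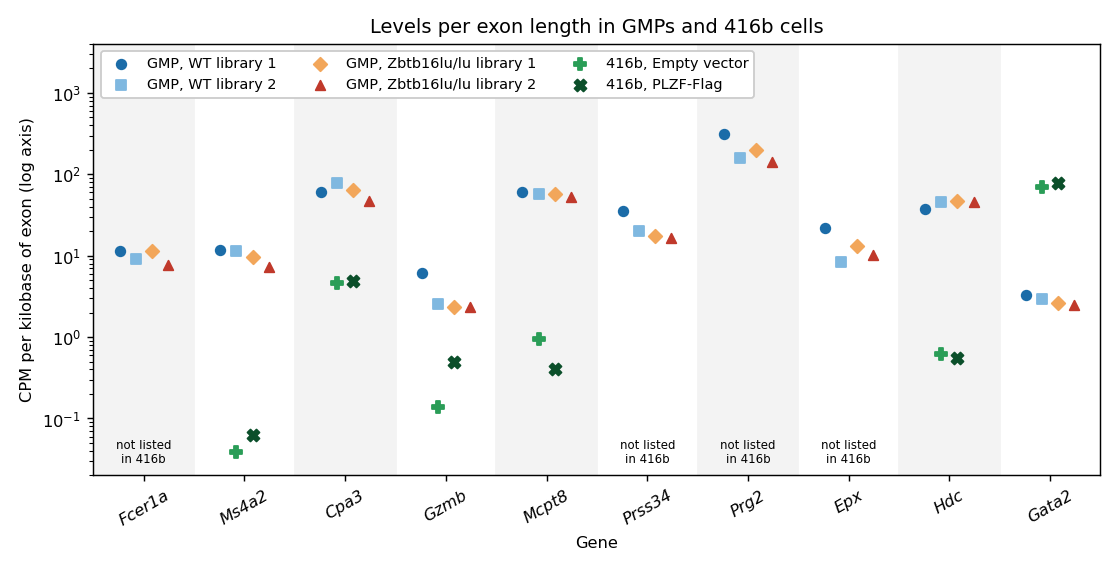
CPM per kilobase of exon (log axis) of the 10 genes in the 4 GMP libraries and the 2 416b libraries. Of the 6 genes listed in 416b cells, Gata2 lies higher there (69.8 and 79.2) than in GMPs (2.50 to 3.25), and the other 5 lie lower.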

How the data were processed

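The RNA-seq tables of GMPs (2 WT and 2 Zbtb16lu/lu libraries) and of 416b cells (1 library for Empty vector and 1 for PLZF-Flag) were used. For both, the authors aligned reads (subread-align, mm10), summed them over genes (featureCounts) and scaled each library by its size factor (DESeq2). The signal values they deposited are therefore normalized counts. GMP RNA was depleted of ribosomal RNA and 416b cDNA was made with a low-input kit. The authors' own log values, means, fold changes and p-values, also in the tables, were not used. The members and gene lists were chosen with earlier results of these data known.

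GMP values were tested with limma (3.58.1, R 4.3.3, intensity trend) on log2(value + 1), over 20531 genes with at least 10 normalized counts in at least 2 libraries, Benjamini-Hochberg adjustment over these genes and a threshold of 0.08. Genes named from a wider list are its 2 highest and 2 lowest log2 fold changes, since none passed, and the markers of other cell types. Some genes that this rule names are not reported here, and Lyn, Syk, Slc18a2, Cma1, the tryptases and Mcpt1, Mcpt2 and Mcpt4, and as neighbours of members Prg3, Ctsg, Mpo and Lpo, were added after their values were seen. Fold changes are on the log2(value + 1) scale. All GMP values were whole multiples of the value of 1 read, but this is too close to 1 for the rule on recovered reads, so no count test was run. In 416b cells 84.8% and 85.5% of values were whole reads (within 0.1 of a read). Lists are described by counts and medians. Exon lengths and positions are from GENCODE M21 and promoter windows from RefSeq. Alternatives were other pseudocounts, filters, scalings, variance priors and thresholds, edgeR (4.0.16) scaling for 416b cells, the libraries of a shared date, and leaving out each library.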

Additional observations from a re-analysis of the deposited data

How the results depend on the processing

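In GMPs the direction of all 10 genes and the absence of calls held with pseudocounts of 0.1 or 10, without the filter or with a minimal mean of 100, with quantile normalization or equal library totals, without the intensity trend, with a robust prior for the variance and at a threshold of 0.05. Using the libraries of a shared date alone also kept each direction. Leaving out single libraries did not. Over all genes the number called ranged from 1 to 4645 (4645 without WT library 1, 2760 without WT library 2, 1 without Zbtb16lu/lu library 1 and 48 without Zbtb16lu/lu library 2). Among the 10 genes it ranged from 0 to 6 (3 without WT library 1, 6 without WT library 2) and among the wider lists from 0 to 26. The lone library is assumed to vary like the other genotype, and the spread within Zbtb16lu/lu was smaller than within WT. Fcer1a ranged from -0.43 (without Zbtb16lu/lu library 1) to 0.19 (without Zbtb16lu/lu library 2, with 0.08 without WT library 1), Prg2 from -0.91 (without WT library 2) to 0.11 (without WT library 1) and Epx from -0.94 to 0.48 for the same libraries, so these changed direction. The median over the 10 genes ranged from -0.52 to -0.07 over these fits. In 416b cells the number of genes past a log2 ratio of 1 was 0 with a pseudocount of 10 and 0 with a mean of at least 100, which leaves out Gzmb and Mcpt8, in place of 2. The planned edgeR and DESeq2 tests of GMP reads were not run, since the rule on recovered reads did not accept the values. No paired analysis was possible because the library columns have no replicate numbers and the genotypes share only 1 date, so that a block for date leaves no residual degrees of freedom. The values of the shared date are given without a test.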
